A study of Mus musculus with 6 samples.

Results

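The interferon-stimulated genes are transcribed when a cell senses interferon, and 42 of them were followed in regulatory T (Treg) cells with and without O-GlcNAc transferase (OGT). The 42 genes were a named list spanning nucleic acid sensors, transcription factors, antiviral effectors, the ISG15 pathway, ADP-ribosyltransferases, interferon-inducible GTPases and the proteasome activator. They were found by gene symbol in the count table. All 42 were among its 24420 genes, and 41 of them passed the low-count filter, which kept 10949 genes in all. OGT attaches N-acetylglucosamine to serines and threonines of nuclear and cytosolic proteins. The sequenced RNA came from sorted YFP+ Treg cells of 6 mice, each *Foxp3*YFP-Cre/wt. In 3 of them *Ogt* was wt/fl (OGT-sufficient), and in 3 it was fl/fl (OGT-deficient). All 6 mice were C57BL/6 females, given in the study's methods as 6 to 12 weeks old, and the sampled tissue was lymph node. Both groups carry the YFP-Cre fusion on 1 X chromosome and at least 1 floxed *Ogt* allele. Cre is driven by *Foxp3*, so deletion is limited to cells that express this allele, and the OGT-deficient females also keep YFP- Treg cells that have OGT; the study used these females as healthy mice.

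Interferons reach the nucleus by a short route. Type I interferons bind IFNAR1 and IFNAR2, the kinases JAK1 and TYK2 are switched on, and a transcription factor complex that includes STAT2 and IRF9 binds interferon-stimulated response elements (ISRE) in promoters. Interferon gamma signals through IFNGR1 and IFNGR2, JAK1 and JAK2 to gamma-activated sites (GAS). The products sense viral RNA and DNA, block viral RNA and protein synthesis, attack vacuoles that hold pathogens and feed peptides to MHC class I. T cells keep a low, tonic level of many of these genes in the absence of infection.

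The libraries held between 3375454 and 4103552 counts, and a single ribosomal RNA gene, *Rn45s*, made up 24.2% to 37.1% of each. The deleted gene itself, *Ogt*, was counted 562, 632 and 957 times in OGT-sufficient mice 1, 2 and 3, and 327, 266 and 368 times in OGT-deficient mice 1, 2 and 3. Its groups did not overlap, and its log2 fold change was -1.21 ± 0.21 (SE) with an adjusted p of 0.191 in edgeR's quasi-likelihood test. The library of OGT-sufficient mouse 3 stood apart: 18346 genes had a count there against 14412 to 15197 in the other 5 libraries, and its neutrophil markers summed to 279 CPM (counts relative to the TMM-scaled library size) against 11.1 to 32.3 CPM elsewhere. All 7 Treg markers were present in every library. Their sum was 2643, 2966 and 1997 CPM in OGT-sufficient mice 1, 2 and 3 and 2943, 2708 and 2719 CPM in OGT-deficient mice 1, 2 and 3. Single log2 fold changes, OGT-deficient over OGT-sufficient, were 0.20 (*Foxp3*), 0.44 (*Il2ra*), 0.19 (*Ctla4*), -0.26 (*Ikzf2*), 0.57 (*Tnfrsf18*), 0.12 (*Cd4*) and 0.24 (*Cd3e*). All 12 macrophage markers were present as well, with *Vcam1*, *Csf1r* and the C1q genes among them. They summed to 4501, 3917 and 2103 CPM in OGT-sufficient mice 1, 2 and 3 and to 1557, 5527 and 6323 CPM in OGT-deficient mice 1, 2 and 3, so the sorted cells were not free of macrophage RNA. In bulk RNA, fewer cells of a type and less RNA per cell cannot be told apart.

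The question was whether the interferon-stimulated genes differ between Treg cells with and without OGT. Their median lay slightly higher in OGT-deficient cells, with the largest median differences by role in the IFIT family and the immunity-related GTPases. None of them passed the adjusted threshold. By mouse the groups overlapped. The mean log2 deviation of the 41 genes from their own mean was 0.02, -0.27 and -0.10 in OGT-sufficient mice 1, 2 and 3. In OGT-deficient mice 1, 2 and 3 it was 0.32, 0.30 and -0.28, and its pooled SD between replicates was 0.26. The 41 genes share the same 6 mice and are not replicates of the genotype. The list is described by its counts and median beside those of all genes, and no test was run on the list itself. The median log2 fold change of the 41 tested genes was 0.23, against -0.017 over all 10949 genes, and 33 of the 41 (80.5%) were above 0, against 47.3% of all genes. At an unadjusted p under 0.05 in edgeR's quasi-likelihood test, 7 of the 41 (17.1%) were higher in OGT-deficient cells, against 3.09% of all genes, and 0 were lower, against 4.01% of all genes. The 7 were *Ifit3*, *Igtp*, *Irf9*, *Iigp1*, *Zbp1*, *Ifit1* and *Irgm2*. At a false discovery rate (FDR) under 0.1, 0 of the 41 were called by edgeR and 0 by DESeq2, against 0.0274% (3 genes) of all genes in edgeR and 38 genes in DESeq2. The lowest adjusted p of the 41 in this filtered edgeR fit was 0.565. Without the low-count filter edgeR called 3 of 42, *Ifit3*, *Ifit1* and *Zbp1*, and 131 of all 19710 genes. Without overlap between the 3 and 3 libraries, 4 (9.76%) were higher in OGT-deficient cells, against 5.72% of all genes, and 0 were lower, against 7.48% of all genes. These 4 were *Irf9*, *Ifi35*, *Igtp* and *Irgm2*.

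**Figure D1:**
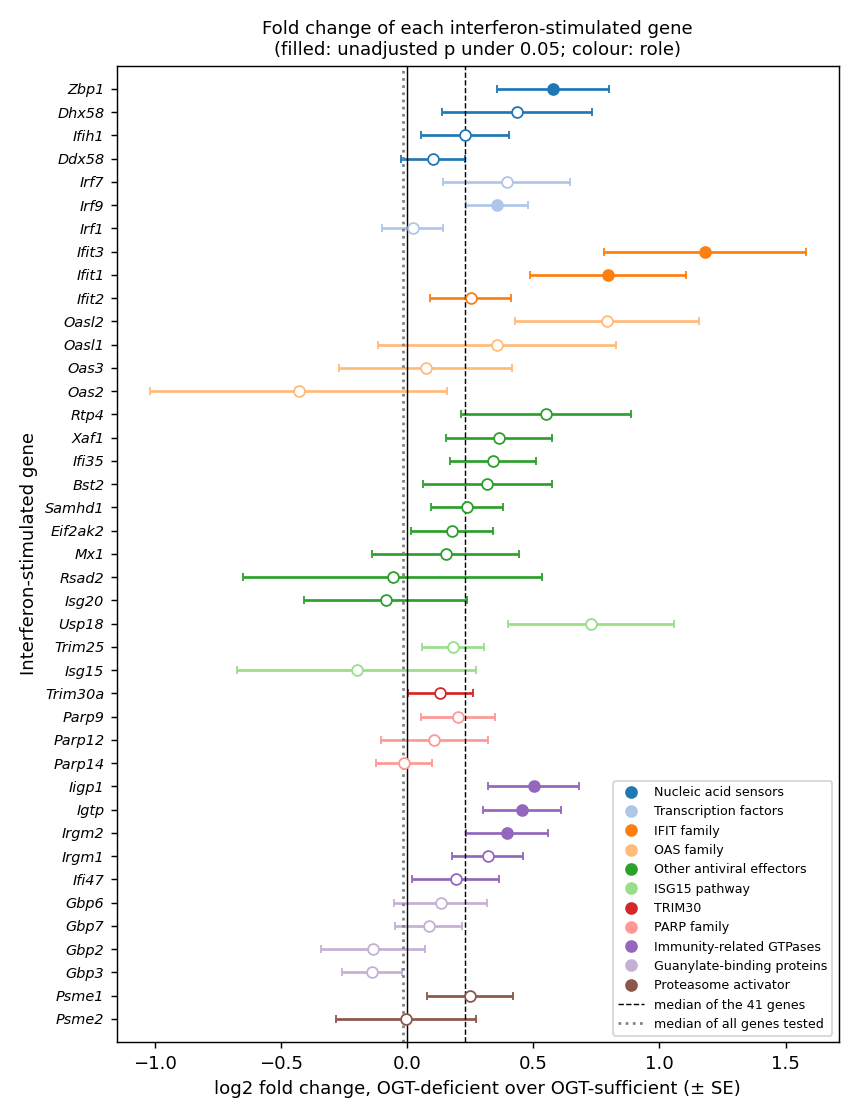
Log2 fold change of each of the 41 tested genes, OGT-deficient over OGT-sufficient (x axis), with its standard error as the bar and its role as the colour. Filled points have an unadjusted p under 0.05; most points lie right of 0, with the dashed line at the median of the 41 genes (0.23), the dotted line at the median of all genes (-0.017), and *Ifit3* farthest to the right at 1.18.

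Promoter sequence was compared next, since the listed genes share a known response element. RefSeq promoters of GRCm38.p6, from 250 bases before to 50 bases after the transcription start, were matched for 32 of the 42 genes. An ISRE, searched on both strands as GAAANNGAAA, lay in 17 of the 32 (53.1%), against 3.99% of 27025 genes with a promoter in that table. A GAS, searched as TTCNNNGAA, which reads the same on both strands, lay in 10 of the 32 (31.2%), against 9.55% of those genes. The 17 genes with an ISRE had a median log2 fold change of 0.18, with 4 at an unadjusted p under 0.05. The 14 tested genes whose matched promoter held no such letters had a median of 0.24, with 1 at that threshold. Of all genes, 3.09% were higher in OGT-deficient cells at that threshold. A match of letters in this window is a description and not a binding site. The elements of some of the genes with an ISRE upstream of the start are shown on the coding strand, 5′ to 3′. ISRE letters (GAAANNGAAA or its reverse complement) are in capitals, with 10 flanking bases on each side.

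*Ifit1* (chr19:34640775-34640823, + strand): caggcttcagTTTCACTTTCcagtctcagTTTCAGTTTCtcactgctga
*Ifit3* (chr19:34583363-34583426, + strand): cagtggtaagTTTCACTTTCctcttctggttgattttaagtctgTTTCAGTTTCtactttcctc
*Igtp* (chr11:58199512-58199541, + strand): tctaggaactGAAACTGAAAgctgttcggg
*Irgm2* (chr11:58214903-58214932, + strand): tccaggaactGAAACTGAAAgctgttcggg
*Isg15* (chr4:156200865-156200906, - strand): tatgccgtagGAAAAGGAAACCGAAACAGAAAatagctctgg
*Rsad2* (chr12:26456553-26456582, - strand): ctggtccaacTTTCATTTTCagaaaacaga

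*Ifit1* and *Ifit3* each carry a pair of elements, at 104 and 85 bases upstream of the start of *Ifit1* and at 156 and 122 bases upstream of *Ifit3*. *Igtp* and *Irgm2* are neighbours on chromosome 11 and show nearly the same stretch, at 34 and 64 bases upstream. The 30 bases shown differ in 1 place, T3C, counted from the 5′ end with the base of *Igtp* given before the position and that of *Irgm2* after it. *Isg15* has 3 overlapping elements, beginning between 78 and 66 bases upstream, and *Rsad2* has 1, at 120 bases upstream. The first 4 of these genes were higher in OGT-deficient cells at an unadjusted p under 0.05, and the last 2 were not. These 4 are all of the 17 genes with an ISRE that passed, so the genes shown are no even sample. *Gbp2*, *Gbp3*, *Gbp7*, *Oas3*, *Trim30a*, *Bst2* and *Irgm1* also had an element upstream, did not pass and are not shown.

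Levels in the sorted Treg libraries, which also held macrophage RNA, spanned a wide range. Per kilobase of exon, which allows genes to be compared, the mean over the 6 libraries ran from 0.277 CPM per kb for *Ifi44* to 107 CPM per kb for *Psme1*, with a median of 14.9 CPM per kb. *Samhd1*, a phosphohydrolase that depletes deoxynucleotides, followed *Psme1* at 106 CPM per kb. *Igtp* came next at 81.1 CPM per kb, and no other listed gene exceeded the level of *Irf1*, the next in order. The 4 OAS family genes lay between 1.90 CPM per kb (*Oasl1*) and 2.94 CPM per kb (*Oas3*), and the 3 IFIT genes between 13.6 CPM per kb (*Ifit3*) and 17.9 CPM per kb (*Ifit1*). *Ifi44* had 13, 3 and 1 counts in OGT-sufficient mice 1, 2 and 3 and 7, 12 and 3 counts in OGT-deficient mice 1, 2 and 3, and it was the gene that the filter removed.

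**Figure D2:**
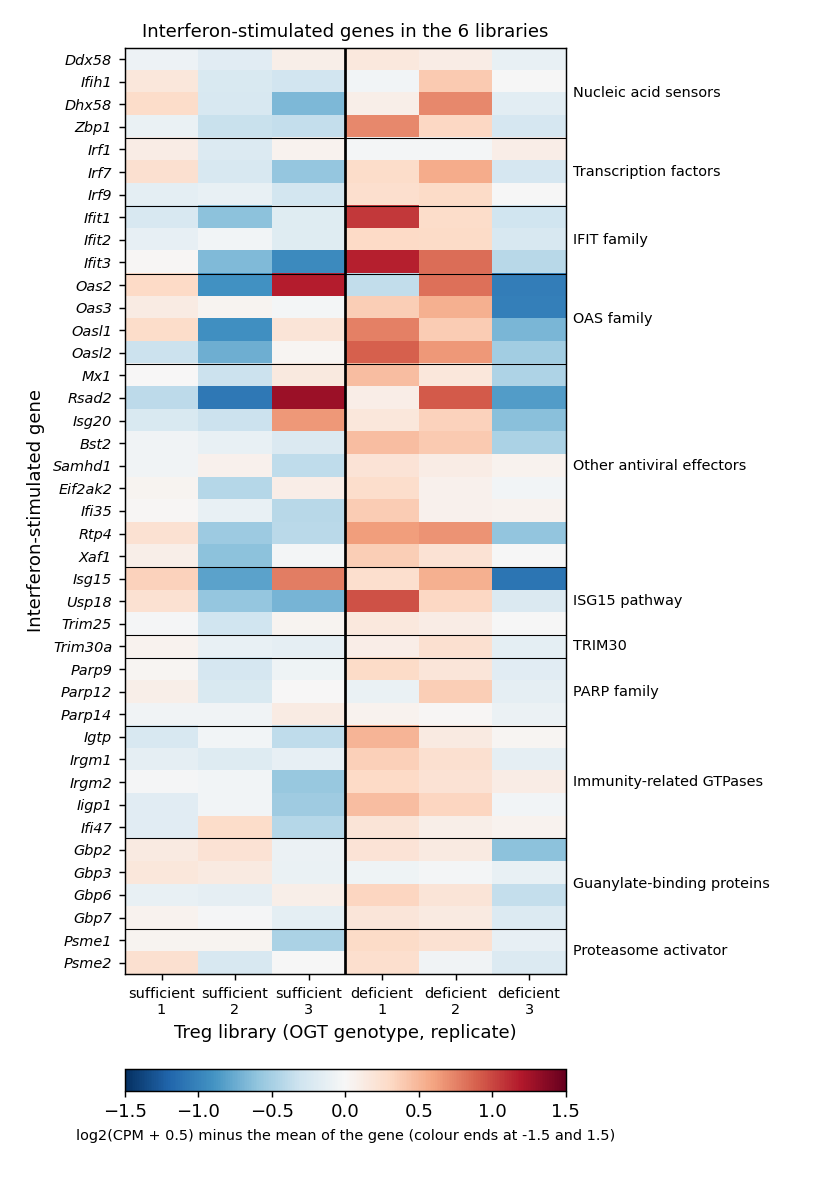
Each of the 41 tested genes (rows, grouped by role) in the 6 libraries (columns), coloured by log2(CPM + 0.5) minus the mean of that gene, from blue (below) to red (above). OGT-deficient mice 1 and 2 are mostly red, OGT-deficient mouse 3 is mostly blue, and *Rsad2*, *Oas2* and *Isg15* are highest in OGT-sufficient mouse 3.

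All 4 nucleic acid sensors had a log2 fold change above 0, with a median of 0.33. *Zbp1*, which binds left-handed nucleic acids and can start necroptosis, was the highest per kilobase. It had 358, 303 and 305 counts in OGT-sufficient mice 1, 2 and 3, and 659, 507 and 329 counts in OGT-deficient mice 1, 2 and 3. OGT-deficient mice 1 and 2 were above every OGT-sufficient mouse, and OGT-deficient mouse 3 lay among them once scaled to library size. The means were 85.9 ± 8.51 CPM (SD, n = 3) and 128 ± 41.9 CPM (SD, n = 3). The log2 fold change was 0.58 ± 0.22 (SE), with an unadjusted p of 0.0283 and an adjusted p of 0.650 in edgeR. The RNA helicases were less different. *Ddx58*, which encodes RIG-I, had 343, 318 and 393 counts against 417, 412 and 340, and *Ifih1*, which encodes MDA5, had 230, 173 and 170 against 206, 283 and 207. Their log2 fold changes were 0.10 ± 0.13 and 0.23 ± 0.17 (SE), and the groups overlapped for both. *Dhx58*, which encodes the regulator LGP2, had 93, 64 and 48 counts against 84, 134 and 70, a log2 fold change of 0.43 ± 0.30 (SE). Its exons overlap those of an antisense gene, *Dhx58os*, and reads of the pair cannot be separated without the strand.

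Among the transcription factors *Irf9* was higher and the fold change of *Irf1* lay near 0. *Irf9*, a DNA-binding partner of STAT2, had 390, 398 and 363 counts in OGT-sufficient mice 1, 2 and 3, and 530, 559 and 438 counts in OGT-deficient mice 1, 2 and 3. Every OGT-deficient mouse was above every OGT-sufficient mouse, also in CPM (95.6 to 107 CPM against 115 to 141 CPM). The log2 fold change was 0.36 ± 0.12 (SE), or 1.28-fold, with an unadjusted p of 0.0171 and an adjusted p of 0.565 in edgeR. With library size as the only scaling its unadjusted p was 0.0731, no longer under 0.05. Exons of *Irf9* overlap those of *Rnf31*. *Irf7*, the regulator of type I interferon genes, had 223, 158 and 127 counts against 237, 295 and 161, a log2 fold change of 0.39 ± 0.25 (SE) with overlapping groups. *Irf1*, a regulator induced by interferon gamma and the highest of the 3 per kilobase, had 675, 536 and 654 counts against 632, 646 and 678. The fold change of *Irf1* was 0.02 ± 0.12 on the log2 scale (SE), and it turned to -0.03 with library size as the only scaling.

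The IFIT family, whose proteins bind viral RNA and hold back its translation, had the largest median log2 fold change of the roles, at 0.79. Its 3 genes were not alike, with *Ifit2* at 0.25. *Ifit3* had 77, 47 and 39 counts in OGT-sufficient mice 1, 2 and 3, and 180, 146 and 58 counts in OGT-deficient mice 1, 2 and 3. OGT-deficient mice 1 and 2 were far above the rest, while OGT-deficient mouse 3, at 15.2 CPM, lay between OGT-sufficient mice 1 and 2, at 20.6 and 12.7 CPM. The means were 14.5 ± 5.39 CPM (SD, n = 3) and 32.9 ± 16.0 CPM (SD, n = 3). This was the largest fold change of the 41 genes, 1.18 ± 0.40 on the log2 scale (SE) or 2.27-fold, with an unadjusted p of 0.0165 and an adjusted p of 0.565 in edgeR. *Ifit3* shares 51.2% of its 50-base windows with a near copy, *Ifit3b*, so how reads of the pair were assigned is uncertain. *Ifit3b* itself had 20, 25 and 11 counts against 45, 33 and 9.

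*Ifit1* was also highest in OGT-deficient mice 1 and 2. It had 139, 106 and 147 counts in OGT-sufficient mice 1, 2 and 3, and 358, 210 and 136 counts in OGT-deficient mice 1, 2 and 3. OGT-deficient mouse 3 was inside the OGT-sufficient range, and the 2 other OGT-deficient mice were above it. The log2 fold change was 0.79 ± 0.31 (SE), with an unadjusted p of 0.0305 and an adjusted p of 0.666 in edgeR. *Ifit2* had 218, 229 and 213 counts against 304, 306 and 205, a log2 fold change of 0.25 ± 0.16 (SE). It too was high in OGT-deficient mice 1 and 2 and lowest in OGT-deficient mouse 3.

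**Figure D3:**
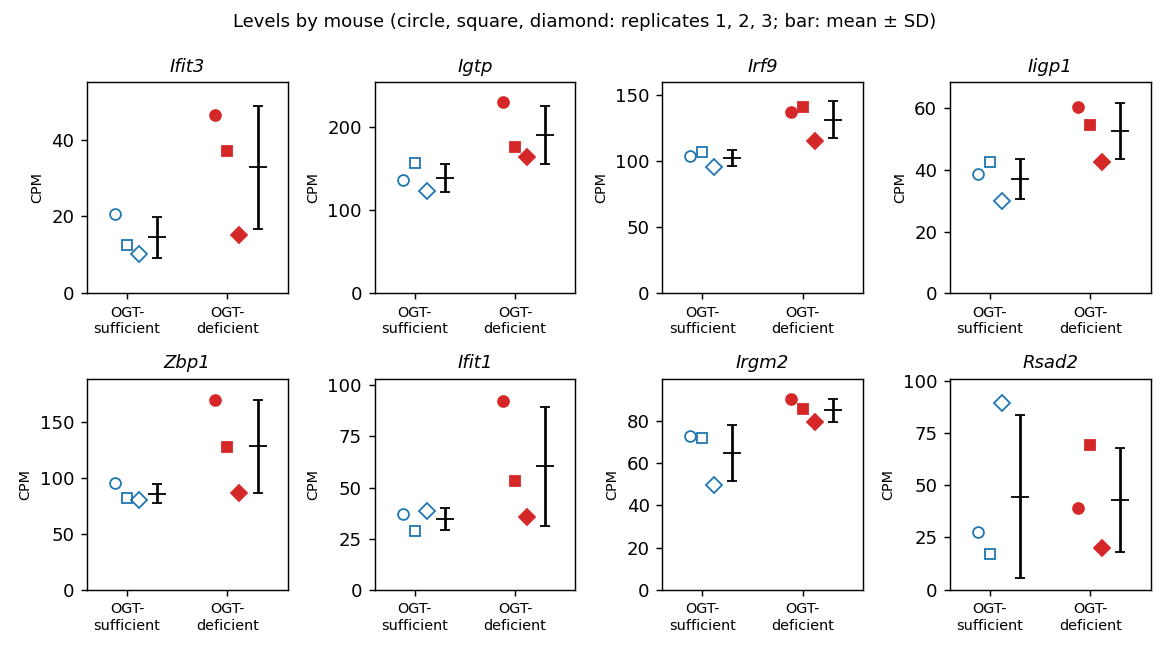
CPM by mouse for the 7 genes at an unadjusted p under 0.05, ordered by p, and for *Rsad2*; open symbols are OGT-sufficient, filled symbols are OGT-deficient, circles, squares and diamonds are mice 1, 2 and 3, and bars are mean ± SD. *Igtp*, *Irf9* and *Irgm2* do not overlap between groups, *Ifit3*, *Zbp1*, *Ifit1* and *Iigp1* do through OGT-deficient mouse 3, and *Rsad2* ranges from 17.0 to 89.2 CPM within the OGT-sufficient mice.

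The oligoadenylate synthetase (OAS) genes, whose enzymes make the messenger that activates RNase L, and their OAS-like relatives did not all share a direction. Of the 4, 3 were above 0, and *Oas2*, below 0, had a fold change smaller than its standard error. *Oasl2* had 42, 31 and 55 counts against 104, 89 and 37, a log2 fold change of 0.79 ± 0.37 (SE) with an unadjusted p of 0.0586 and an adjusted p of 0.706 in edgeR, just outside the threshold. *Oasl1* had 21, 8 and 20 counts against 31, 24 and 10, a log2 fold change of 0.35 ± 0.47 (SE). In both, OGT-deficient mice 1 and 2 were the highest of the 6. *Oas3*, the highest of the family per kilobase, had 80, 75 and 73 counts against 99, 114 and 36. The difference was 0.07 ± 0.34 on the log2 scale (SE), and OGT-deficient mouse 3 lay far below the other 5. *Oas2* was the lowest of the 41 fold changes, at -0.43 ± 0.59 (SE), with 35, 14 and 67 counts against 22, 54 and 13. Each of its groups held both a high and a low mouse.

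Of the 10 other antiviral effectors, 9 were tested, and 7 of these had a log2 fold change above 0 (median 0.24). None had an unadjusted p under 0.05. *Samhd1* had 3464, 3763 and 2798 counts against 4311, 4104 and 3824, a log2 fold change of 0.24 ± 0.14 (SE), and in CPM OGT-deficient mouse 3 lay just below OGT-sufficient mouse 2. *Ifi35*, whose product binds NMI, had 113, 102 and 84 counts against 151, 123 and 118. Its groups did not overlap, although narrowly (30.2 CPM at most against 30.9 CPM at least), and the log2 fold change was 0.34 ± 0.17 (SE) with an unadjusted p of 0.0780 and an adjusted p of 0.734 in edgeR. *Rtp4* had 132, 76 and 86 counts against 181, 191 and 75. *Bst2*, which encodes tetherin, the membrane protein that holds budding virus, had 60, 57 and 54 counts against 89, 87 and 45. In both, as in *Ifit2*, OGT-deficient mice 1 and 2 were on top and OGT-deficient mouse 3 was the lowest of the 6. *Xaf1*, a promoter of apoptosis, had 95, 57 and 89 counts against 120, 110 and 91, and *Eif2ak2*, which encodes the RNA-activated kinase PKR, had 257, 184 and 271 against 311, 275 and 246. *Mx1*, a dynamin-like antiviral GTPase, had 32, 25 and 36 counts against 46, 38 and 23. The log2 fold changes of these 3 genes were 0.36 ± 0.21, 0.18 ± 0.16 and 0.15 ± 0.29 (SE), and their groups overlapped.

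*Rsad2* and *Isg20* departed from the rest of the effectors. *Rsad2*, which encodes viperin, a radical enzyme that makes a chain-terminating nucleotide, had 103, 63 and 339 counts in OGT-sufficient mice 1, 2 and 3, and 151, 274 and 77 counts in OGT-deficient mice 1, 2 and 3. Its highest value was 5.26 times its lowest in CPM, the widest spread of the 41 tested genes; it is given in full because of that spread, seen after its values were known. Its log2 fold change was -0.06 ± 0.59 (SE), and 0.95 without OGT-sufficient mouse 3. *Isg20*, an exonuclease that degrades viral RNA, had 73, 68 and 138 counts against 100, 116 and 56, a log2 fold change of -0.09 ± 0.32 (SE), again with OGT-sufficient mouse 3 on top. That library also held the most neutrophil and B cell marker RNA, at 279 and 264 CPM summed over 6 genes each, and the part of either in these values was not tested.

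In the ISG15 pathway the modifier and its protease had fold changes of opposite sign, but that of the modifier was smaller than its standard error. *Isg15*, a ubiquitin-like protein that is attached to other proteins, had 54, 23 and 74 counts in OGT-sufficient mice 1, 2 and 3 and 52, 65 and 19 counts in OGT-deficient mice 1, 2 and 3. Its log2 fold change was -0.20 ± 0.47 (SE), with the highest value in OGT-sufficient mouse 3 and the lowest in OGT-deficient mouse 3. *Usp18*, which removes ISG15 and also restrains the type I interferon receptor, had 132, 74 and 70 counts against 227, 148 and 99. OGT-deficient mouse 1 was the highest of the 6 and OGT-deficient mouse 3 lay below OGT-sufficient mouse 1. The log2 fold change of *Usp18* was 0.73 ± 0.33 (SE), with an unadjusted p of 0.0553 and an adjusted p of 0.703 in edgeR. *Trim25*, a ubiquitin ligase that acts on RIG-I and the highest of the 3 per kilobase, had 556, 453 and 587 counts against 652, 646 and 573, a log2 fold change of 0.18 ± 0.12 (SE).

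The remaining restriction factors did not differ between groups at an unadjusted p under 0.05 in edgeR. *Trim30a*, a TRIM family protein, had 600, 532 and 535 counts against 638, 720 and 534, a log2 fold change of 0.13 ± 0.13 (SE). Of the ADP-ribosyltransferase (PARP) genes, *Parp14* was the highest per kilobase, with 1311, 1307 and 1500 counts against 1456, 1457 and 1308. It was steady over all 6 mice, at 343 to 395 CPM, and its log2 fold change was -0.01 ± 0.11 (SE). *Parp9*, whose product pairs with the ubiquitin ligase DTX3L and whose exons overlap those of *Dtx3l*, had 354, 289 and 337 counts against 437, 415 and 315, and *Parp12* had 60, 47 and 57 against 54, 77 and 52. Their log2 fold changes were 0.20 ± 0.15 and 0.11 ± 0.21 (SE).

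The immunity-related GTPases gather on vacuoles that hold intracellular pathogens. At an unadjusted p under 0.05, 3 of the 5 genes were higher in OGT-deficient cells, against 3.09% of all genes. All 5 had a log2 fold change above 0 (median 0.40), against 47.3% of all genes. *Igtp* had 510, 579 and 466 counts in OGT-sufficient mice 1, 2 and 3, and 888, 696 and 626 counts in OGT-deficient mice 1, 2 and 3. The groups did not overlap, at 123 to 156 CPM against 164 to 229 CPM. The log2 fold change was 0.46 ± 0.16 (SE), or 1.37-fold, with an unadjusted p of 0.0166 and an adjusted p of 0.565 in edgeR. *Irgm2*, a regulator of the effector GTPases like *Igtp*, had 273, 266 and 188 counts against 350, 338 and 303. Its groups did not overlap either, and the log2 fold change was 0.40 ± 0.16 (SE) with an unadjusted p of 0.0373 and an adjusted p of 0.673 in edgeR. The gene models of *Igtp* and *Irgm2* overlap on chromosome 11, and 11.8% of the 50-base windows of *Igtp* also occur in *Irgm2*, so the pair does not give fully separate counts.

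*Iigp1*, an effector GTPase that acts on the vacuole membrane, had 145, 158 and 114 counts in OGT-sufficient mice 1, 2 and 3, and 234, 216 and 162 counts in OGT-deficient mice 1, 2 and 3. Only OGT-deficient mouse 3 and OGT-sufficient mouse 2 crossed, at 42.5 and 42.6 CPM. The log2 fold change was 0.50 ± 0.18 (SE), with an unadjusted p of 0.0221 and an adjusted p of 0.593 in edgeR. *Irgm1*, also a regulator, had 287, 274 and 293 counts against 417, 393 and 293, a log2 fold change of 0.32 ± 0.14 (SE) with an unadjusted p of 0.0521 and an adjusted p of 0.699 in edgeR. OGT-deficient mouse 3, at 76.8 CPM, was level with the OGT-sufficient mice at 73.8 to 77.1 CPM. *Ifi47* had 301, 403 and 254 counts against 398, 380 and 356, a log2 fold change of 0.19 ± 0.17 (SE) with overlapping groups. In this family OGT-deficient mouse 3 was the lowest library for none of the 5 genes, and OGT-sufficient mouse 3 was the lowest for 4 of them.

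The guanylate-binding proteins, larger GTPases that coat and break pathogen vacuoles, did not share the upward difference: 2 of 4 were above 0 and the median log2 fold change was -0.026. *Gbp2*, the highest of the 4 per kilobase, had 364, 382 and 315 counts against 397, 385 and 220. It had a log2 fold change of -0.14 ± 0.21 (SE), which was 0.12 without OGT-deficient mouse 3. *Gbp3* had 332, 323 and 280 counts against 293, 307 and 279, and *Gbp7* had 622, 586 and 547 against 704, 693 and 531. Their log2 fold changes were -0.14 ± 0.12 and 0.08 ± 0.13 (SE). *Gbp6* had 158, 154 and 184 counts against 222, 206 and 135, a log2 fold change of 0.13 ± 0.19 (SE), but 70.7% of its 50-base windows occur in other genes, mainly *Gm43302* and *Gbp10*, so its count is uncertain. All 4 were lowest in OGT-deficient mouse 3.

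The proteasome activator genes encode partner subunits of the ring that opens the proteasome for peptide production. *Psme1* had 899, 896 and 640 counts against 1104, 1081 and 818, a log2 fold change of 0.25 ± 0.17 (SE) with overlapping groups. *Psme2* had only 26, 18 and 22 counts against 27, 22 and 19, a log2 fold change of -0.01 ± 0.28 (SE). The 2 partners stood at 107 and 3.32 CPM per kb, and 28.3% of the 50-base windows of *Psme2* also occur in other genes, mainly the copy *Psme2b*.

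The listed genes also differed from mouse to mouse within a genotype. The mean deviation of the 41 genes from their own mean, on a log2(CPM + 0.5) scale, was 0.02, -0.27 and -0.10 in OGT-sufficient mice 1, 2 and 3, and 0.32, 0.30 and -0.28 in OGT-deficient mice 1, 2 and 3. OGT-deficient mice 1 and 2 stood above the other 4, and OGT-deficient mouse 3 was level with the lowest OGT-sufficient mouse. Over all 10949 genes the same mean stayed between -0.06 and 0.03. The roles did not all move together: in OGT-sufficient mouse 3 the mean was 0.34 for the OAS family and -0.41 for the immunity-related GTPases. OGT-deficient mouse 1 had the highest CPM of the 6 libraries for 24 of the 41 genes (58.5%), against 15.2% of all genes, and OGT-deficient mouse 2 for 8 (19.5%), against 14.1%. OGT-deficient mouse 3 was the highest for 0 genes, against 14.6% of all genes, and the lowest for 14 (34.1%), against 15.7%. OGT-sufficient mouse 3 was the lowest for another 14 (34.1%), against 23.8% of all genes, and the highest for 5 (12.2%), against 27.4% of all genes. These 5 were *Oas2*, *Rsad2*, *Isg20*, *Isg15* and *Parp14*. The 7 genes at an unadjusted p under 0.05 in edgeR leaned more on these 2 libraries. OGT-deficient mouse 1 was the highest for 6 of the 7 (85.7%). OGT-sufficient mouse 3, the library that stood apart, was the lowest for 6 of the 7 (85.7%). The 7 were picked by their p in these same libraries.

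**Figure D4:**
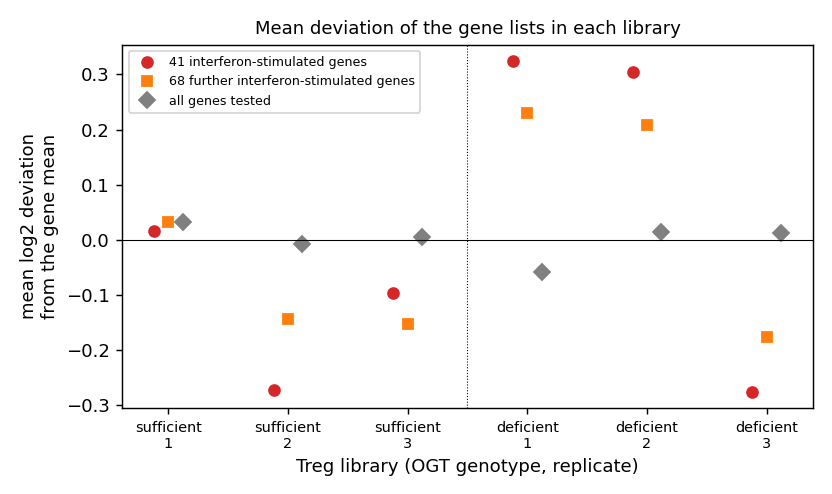
Mean log2(CPM + 0.5) deviation from the gene mean (y axis) of the 41 interferon-stimulated genes, 68 further interferon-stimulated genes and all genes tested in each library (x axis). Both interferon lists are highest in OGT-deficient mice 1 and 2 (0.32 and 0.30 for the 41 genes) and lowest or nearly so in OGT-deficient mouse 3 (-0.28), while all genes stay near 0.

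Marker RNA of other cells varied over the same libraries. The macrophage sum was lowest in OGT-deficient mouse 1 (1557 CPM), where the 41 genes were highest, but high in OGT-deficient mouse 2 (5527 CPM), where they were as high, and highest in OGT-deficient mouse 3 (6323 CPM), where they were low. All 6 markers of plasmacytoid dendritic cells, a main source of type I interferon, were present in every library. They summed to 129 to 180 CPM in OGT-sufficient and 143 to 194 CPM in OGT-deficient mice, with the highest sum in OGT-deficient mouse 1. *Siglech*, *Tcf4*, *Klk1* and *Pacsin1* were highest in that mouse. *Ccr9* was highest in OGT-sufficient mouse 2, and *Cox6a2* was highest in OGT-deficient mouse 3 and lowest in OGT-deficient mouse 1. The 6 B cell markers, all present, summed to 75.2 to 264 CPM and 75.7 to 126 CPM. The CD8 T and natural killer cell markers summed to 14.2 to 32.9 CPM over all mice, with *Klra8* at 0 in every library and *Ncr1* at 0 in 3. The part of these cells in the interferon-stimulated genes was not tested.

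Upstream of the list, 18 genes of interferon production and signalling were examined, and 12 were tested. None was higher in OGT-deficient cells at an unadjusted p under 0.05, against 3.09% of all genes, and 1 (8.33%), *Tyk2*, was lower, against 4.01% of all genes. Interferon transcripts themselves were scarce. *Ifnb1*, *Ifna1*, *Ifna2* and *Ifne* had 0 counts in every library, which allows a level of up to 0.759 to 0.808 CPM depending on the library, and *Ifna4* had 3 counts in OGT-sufficient mouse 3 and 0 elsewhere. *Ifnk* had 0 to 4 counts. *Ifng*, the single interferon gene that was tested, had 15, 12 and 6 counts against 12, 11 and 9, a log2 fold change of -0.09 ± 0.41 (SE).

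The receptors were well expressed, and none differed between groups at an unadjusted p under 0.05 in edgeR. *Ifnar1* had 602, 626 and 524 counts against 648, 613 and 575 (log2 fold change 0.02 ± 0.12, SE), and *Ifngr1* had 805, 840 and 603 against 729, 723 and 850 (-0.02 ± 0.15). *Ifnar2* had 453, 438 and 315 counts against 409, 508 and 512 (0.19 ± 0.17), and *Ifngr2* had 204, 168 and 175 against 176, 185 and 212 (0.02 ± 0.14). The sign of *Ifnar1*, *Ifngr1* and *Ifngr2* depended on the scaling or filter used, while *Ifnar2* stayed above 0 in all 11 alternatives. Among the kinases, *Tyk2*, which docks on IFNAR1, had 252, 233 and 242 counts in OGT-sufficient mice 1, 2 and 3, and 153, 190 and 168 counts in OGT-deficient mice 1, 2 and 3. Its groups did not overlap, and it was lower by a log2 fold change of -0.56 ± 0.12 (SE), with an unadjusted p of 0.00154 and an adjusted p of 0.306 in edgeR. *Jak1* and *Jak2* had log2 fold changes of 0.09 ± 0.11 and -0.12 ± 0.11 (SE).

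*Stat2*, which joins IRF9 at the ISRE, had 238, 213 and 238 counts against 275, 297 and 186, a log2 fold change of 0.09 ± 0.17 (SE). OGT-deficient mice 1 and 2 were its highest and OGT-deficient mouse 3 its lowest. The inhibitors *Socs1* and *Socs3*, which block JAK kinases in a feedback loop, had log2 fold changes of 0.45 ± 0.32 and 0.39 ± 0.18 (SE). *Socs1* had 52, 72 and 31 counts against 86, 83 and 51, and *Socs3* had 92, 71 and 68 against 93, 121 and 100. *Socs3* had an unadjusted p of 0.0595 and an adjusted p of 0.707 in edgeR.

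A further 76 interferon-stimulated genes outside the list gave a second view, although they respond to the same signal in the same libraries and are no independent check. Of them, 74 were in the table and 68 were tested. Their median log2 fold change was 0.18, and 52 (76.5%) were above 0. At an unadjusted p under 0.05, 6 (8.82%) were higher in OGT-deficient cells in edgeR, against 3.09% of all genes, and 0 were lower, against 4.01%. Without overlap between groups, 2 (2.94%) were higher, against 5.72% of all genes, a share below that background, and 0 were lower, against 7.48%. *Slfn1*, a Schlafen family gene linked to the control of T cell growth, had the lowest p of the 68, with 793, 785 and 603 counts against 1350, 1122 and 943 and no overlap between groups. Its log2 fold change was 0.59 ± 0.17 (SE), with an unadjusted p of 0.00582 and an adjusted p of 0.463 in edgeR. *Slfn5*, of the same family, had 824, 746 and 655 counts against 1205, 1164 and 792, a log2 fold change of 0.45 ± 0.17 (SE). *Ly6e*, a membrane protein that restricts viral entry, had 2210, 2023 and 1277 counts against 2642, 3136 and 2461, again without overlap, a log2 fold change of 0.53 ± 0.20 (SE). *Ifit1bl1*, an *Ifit1* relative, had 216, 146 and 111 counts against 465, 304 and 148, a log2 fold change of 0.90 ± 0.38 (SE).

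The number of listed genes at an unadjusted p under 0.05 depended on the mouse left out, in both directions. Without OGT-deficient mouse 1 it was 0 of 42 tested, against 3.78% of all genes higher at that threshold. Without OGT-deficient mouse 2 it was 3 of 41 (7.32%), against 2.30% of all genes, and without OGT-deficient mouse 3 it was 17 of 42 (40.5%), against 3.76%. Without OGT-sufficient mouse 1 it was 14 of 41 (34.1%), against 4.17% of all genes. Without OGT-sufficient mice 2 and 3 it was 6 of 42 (14.3%) and 5 of 42 (11.9%), against 4.08% and 3.33%. In every one of these fits each gene at the threshold was higher in OGT-deficient cells, and the median log2 fold change of the list ran from 0.16 (without OGT-deficient mouse 1) to 0.41 (without OGT-deficient mouse 3). Listed genes above 0 numbered 32 of 42 without OGT-deficient mouse 1 and 40 of 42 without OGT-deficient mouse 3. Without OGT-sufficient mouse 3 they numbered 38 of 42.

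**Figure D5:**
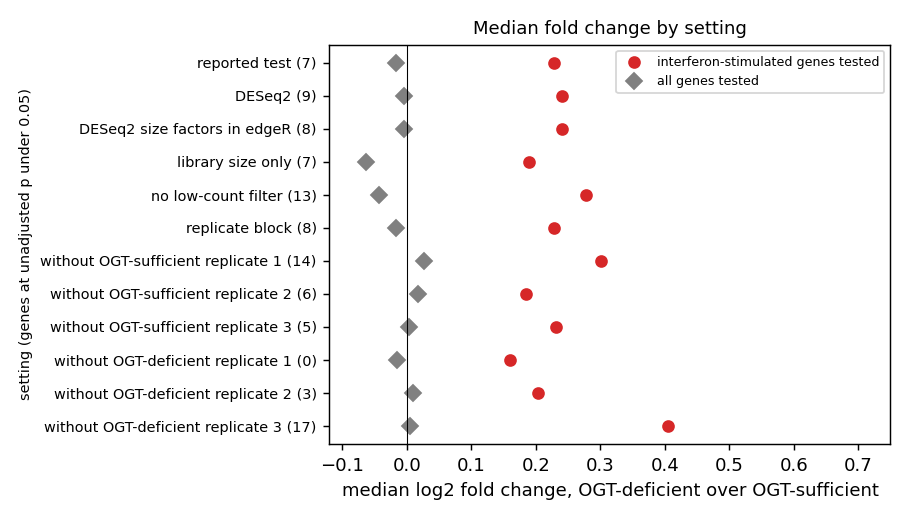
Median log2 fold change, OGT-deficient over OGT-sufficient (x axis), of the interferon-stimulated genes (red circles) and of all genes tested (grey diamonds) under each setting (y axis), with the number of interferon-stimulated genes at an unadjusted p under 0.05 in brackets. The median of the list stays right of that of all genes, between 0.16 and 0.41, while the bracketed number runs from 0 to 17.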

How the data were processed

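Per the labels, reads were trimmed by Trimmomatic 0.33 and aligned to mm10 by Bowtie2 2.2.4.0. The deposited table holds 1 whole number per gene and mouse, used here as a count without normalization. Its counting tool is given as Cuffquant in the paper and as featureCounts in the submitters' processing notes. The annotation, the strand setting and the handling of shared reads are not given in the sources used here. The table's columns of the authors' own comparison (fold change, p-value and FDR) were not used.

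Groups follow the labelled genotype. Counts were scaled by TMM, filtered with filterByExpr at a minimum count of 10 and tested with edgeR 4.0.16 (quasi-likelihood, genotype only) in R 4.3.3, with Benjamini-Hochberg adjustment over 10949 genes. SE is the absolute log2 fold change divided by the root of F. P-values test the genotype difference against the spread between mice, which edgeR estimates with information shared across genes. With 3 mice against 3, an exact two-sided permutation test could not go below 0.1. Replicates differed beyond counting error (chi-square per degree of freedom 3.31 to 22.0). Coordinates, exon lengths and shared 50-base windows are from GENCODE M21, by symbol.

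The 42 genes and the further lists were chosen with earlier results of these data known. Counts per mouse are given for genes at an unadjusted p under 0.05 or without overlap and for the highest per kilobase in each role, and for others as they are described. DESeq2 1.42.0, its size factors, plain library size, an unfiltered table, a block for the replicate number and the omission of each mouse in turn were tried as alternatives. Some listed genes are not reported here as single genes.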

Additional observations from a re-analysis of the deposited data

How the results depend on the processing

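The 7 listed genes at an unadjusted p under 0.05 (3.09% of all genes higher) became 9 with DESeq2 (2.13%), 8 with DESeq2 size factors (3.43%), 7 with library size only (1.92%), 13 of 42 without the low-count filter (3.09%) and 8 with the replicate number as a block (2.90%), and ranged from 0 to 17 with 1 mouse left out. With library size only, *Irf9* left the 7 (unadjusted p 0.0731 in edgeR) and *Usp18* joined (0.0491). The cause of these changes was not tested. The count at an FDR under 0.1 stayed at 0 except without the filter, where it was 3 (*Ifit3*, *Ifit1* and *Zbp1*, adjusted p 0.0068, 0.0307 and 0.0900 in edgeR). The labels do not say that the replicate numbers pair the mice. The deviations of mice with the same number correlated at -0.27, 0.0049 and -0.11, and 0 of 6 mice correlated best with their own number. These values show no sign of pairing, but 3 mice per group cannot exclude it. *Oas2*, *Isg15*, *Oasl1* and *Rsad2* had the widest standard errors (0.59, 0.47, 0.47 and 0.59), and the smallest among the tested listed genes was 0.11 (*Parp14*). The smallest log2 fold change of a listed gene at an unadjusted p under 0.05 in edgeR was 0.36 (*Irf9*). No listed gene with a difference as small as the median of the list (0.23) reached that threshold, and power was not computed. A difference of that size could be missed in single listed genes, most of all in those with the widest standard errors. The median of the list stayed between 0.16 and 0.41 under all 11 alternatives, and each of the 7 genes kept its direction in all of them. The 7 were picked by their p in these same libraries, so their kept direction is no independent check. Some genes near 0 changed sign. With library size only, *Irf1* was at -0.031, *Ifnar1* at -0.019 and *Ifngr2* at -0.028. Without the filter, *Parp14* was at 0.037, *Ifngr1* at 0.027 and *Rsad2* at 0.016, and with the block *Oas3* was at -0.035 and *Rsad2* at 0.14. With 1 mouse left out, log2 fold changes ran from -0.39 to 0.23 for *Ifng*, from -0.15 to 0.12 for *Ifngr1*, from -0.031 to 0.13 for *Irf1*, from -0.039 to 0.060 for *Parp14*, from -0.054 to 0.11 for *Ifnar1*, from -0.043 to 0.15 for *Ifngr2*, from -0.55 to 0.95 for *Rsad2*, from -0.18 to 0.46 for *Oas3* and from -0.28 to 0.12 for *Gbp2*.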

Other observations

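Genes of MHC class I antigen presentation, which interferon also raises, were measured among the 76 further genes. All 11 of them were tested, 10 had a log2 fold change above 0, and their median was 0.18. *H2-D1*, which encodes a classical MHC class I heavy chain, had 638, 640 and 466 counts in OGT-sufficient mice 1, 2 and 3 and 860, 921 and 654 counts in OGT-deficient mice 1, 2 and 3, a log2 fold change of 0.43 ± 0.17 (SE) with an unadjusted p of 0.0330 and an adjusted p of 0.668 in edgeR. *H2-K1*, the other classical heavy chain examined, had 4478, 5003 and 4010 counts against 6723, 6248 and 4967, a log2 fold change of 0.36 ± 0.15 (SE) with an unadjusted p of 0.0438 and an adjusted p of 0.685 in edgeR. The immunoproteasome subunit *Psmb8* had 625, 673 and 485 counts against 889, 812 and 669, and the light chain *B2m* had 5408, 5005 and 3343 against 6629, 7284 and 5189. Their log2 fold changes were 0.36 ± 0.16 and 0.42 ± 0.20 (SE), just outside the threshold at unadjusted p values of 0.0507 and 0.0692 and adjusted p values of 0.699 and 0.725 in edgeR. The peptide transporter genes were closer to level: *Tap1* and *Tap2* had log2 fold changes of 0.11 ± 0.12 and 0.12 ± 0.15 (SE). The master regulator *Nlrc5* had 652, 652 and 932 counts against 1009, 747 and 725, a log2 fold change of 0.10 ± 0.18 (SE). OGT-sufficient mouse 3 was the lowest of the 6 for *H2-D1*, *H2-K1*, *Psmb8*, *B2m* and *Tap1*.

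The HIN200 genes, whose products sense DNA, did not share the upward difference. Of 7 listed, 4 were tested, and 1 of them was above 0, with a median log2 fold change of -0.03. *Ifi204*, the gene above 0, had 114, 80 and 54 counts in OGT-sufficient mice 1, 2 and 3 and 44, 157 and 109 counts in OGT-deficient mice 1, 2 and 3, a log2 fold change of 0.27 ± 0.42 (SE). *Ifi203* had 803, 786 and 961 counts against 977, 843 and 755, *Mndal* had 563, 577 and 716 against 685, 618 and 574, and *Aim2* had 102, 89 and 113 against 102, 96 and 96. In *Ifi203*, *Mndal* and *Aim2*, OGT-sufficient mouse 3 had the highest CPM of the 6.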
